A study of Mus musculus with 140 samples.

Results

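The ADAM, ADAMTS and ADAMTS-like genes of the mouse were examined for silencer intervals, DNA segments that a reporter screen listed as lowering transcription. Members were the autosomal protein-coding genes whose symbol is Adam, Adamts or Adamtsl followed by a number in the GENCODE M21 annotation of mm10. This gave 51 genes (27 Adam, 19 Adamts and 5 Adamtsl) of 20807 autosomal protein-coding genes. Intervals were assigned to a gene when they overlapped its territory, the stretch from 10 kb before to 10 kb after it. The territories of the 51 genes held 338 of the 115165 intervals listed for mouse embryonic stem cells (mESCs) and 247 of the 89596 intervals listed for mouse embryonic fibroblasts (MEFs).

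ADAM proteins are membrane-anchored proteins with a metalloprotease and a disintegrin domain. Some of them, the sheddases, cut the extracellular part of receptors, ligands and adhesion molecules from the cell surface, while others have lost the catalytic residues and act in cell contact, and many are restricted to testis or sperm. ADAMTS proteins are secreted relatives with thrombospondin repeats that cut components of the extracellular matrix such as aggrecan, versican and procollagen. ADAMTS-like proteins share the thrombospondin repeats but have no protease domain. Fibroblasts make and remodel matrix, whereas embryonic stem cells are pluripotent.

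The study used Ss-STARR-seq, in which pieces of sheared mouse DNA sit in a reporter plasmid and the RNA made from the plasmids is sequenced beside the plasmid pool. The labels describe 56 libraries of reporter RNA from mESCs in 3 output sets, 64 from MEFs in 4 output sets and 20 of the input plasmid pool, whose titles carry the name hPGK. The mESCs were grown in N2B27 medium with 2 inhibitors and LIF and the MEFs in DMEM with 10% serum, and the labels give no strain, genotype, clone or passage for either. Each cell type has 1 interval list, with a linear fold per interval that the authors assigned and that exceeds 2 throughout, so no value has a replicate behind it and the p-values describe the lists. The lists hold no counts and no expression values, so read depth at an interval is unknown here and the cell labels could not be set against marker genes.

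Relative to length, the members as a whole stood close to other genes. Their territories held 53.4 mESC intervals per Mb (95% Poisson interval 47.9 to 59.4) and 39.1 MEF intervals per Mb (34.3 to 44.2), against 49.97 and 38.5 per Mb over the territories of all autosomal protein-coding genes. These intervals cover counting error only. Of the member intervals of both lists together, 57.8% came from the mESC list, beside 56.5% over all territories. The authors' fold was also similar, with a median of 2.38 in mESCs and 2.31 in MEFs at the members and of 2.39 and 2.35 over all territories. A fold above 4 was given to 15 member intervals in mESCs (4.44%) and 9 in MEFs (3.64%), against 7.16% and 5.22% over all territories.

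The members differed among themselves. The Adam genes carried 165 mESC and 102 MEF intervals, or 73.8 and 45.6 per Mb. The Adamts genes carried 102 and 90, or 37.2 and 32.8 per Mb, so the gap between the families was wider in the mESC list than in the MEF list. Of the 27 Adam genes, 20 lay above the median mESC density of all genes (41.9 per Mb) and 15 above the median MEF density (32.7 per Mb). Of the 19 Adamts genes, 6 lay above the median in each list. The 5 Adamtsl genes fell apart, with 71 mESC and 55 MEF intervals that all belonged to Adamtsl1 and Adamtsl3. Whether the families differ was not tested, since neighbouring members share sequence and intervals. Density ran with base composition: across the 51 members, intervals per Mb and GC content of the territory had a Spearman correlation of -0.49 in mESCs and -0.33 in MEFs, given as a description of genes in 2 lists, and over all genes it was -0.26 and -0.25. For soft-masked repeat content the Spearman correlation was 0.45 in mESCs and 0.44 in MEFs across the members and 0.21 and 0.17 over all genes. The median territory was 34.0% repeat in Adam genes and 23.5% in Adamts genes. The part of GC and repeats in the difference between the families was not tested.

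**Figure D1:**
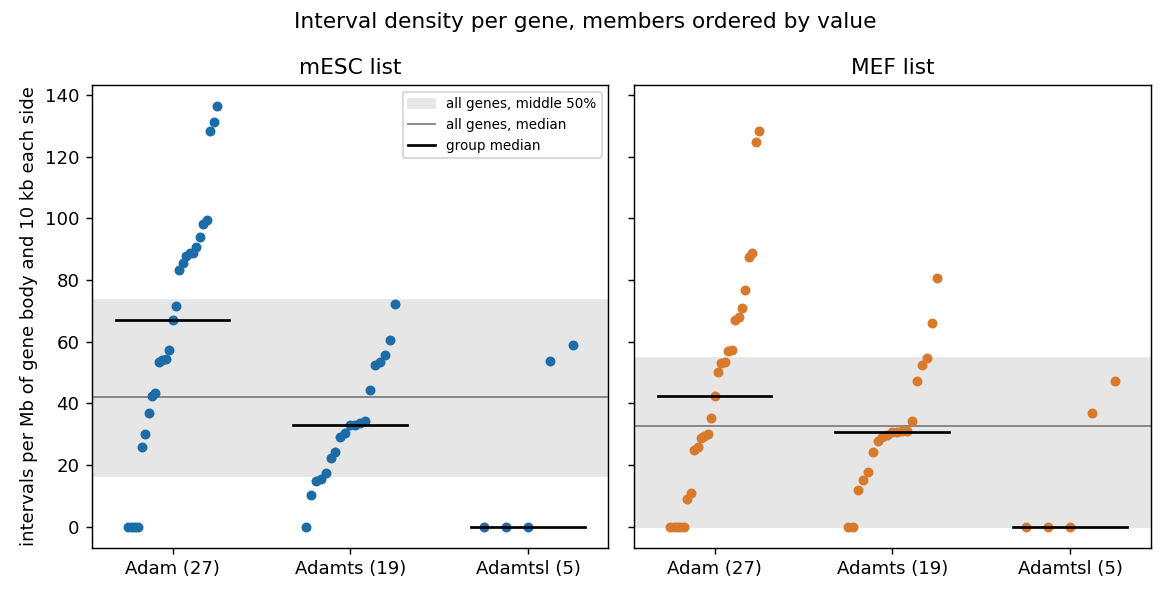
Intervals per Mb of territory for each member in the mESC list (left) and the MEF list (right), 1 point per gene, ordered by value within Adam, Adamts and Adamtsl genes; the grey band and line are the middle 50% and the median of all 20807 genes and the black bars are group medians. The Adam median is 66.9 per Mb in mESCs and 42.5 in MEFs, and the Adamts median 33.0 and 30.6.

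Intervals were absent from both lists at 8 members (15.7%), against 16.2% of all genes. They were Adam8, Adam15, Adam20, Adam25, Adamts15, Adamtsl2, Adamtsl4 and Adamtsl5. These territories were short, from 24.0 to 49.6 kb. Their median GC content was 51.0% (range 40.6% to 55.7%), against 42.1% (36.6% to 54.3%) in the 43 members with an interval. Adam20 and Adam25 lay below that 42.1%, at 40.6% and 41.0%. In the mESC list 43 members had an interval and 8 had none, where 22.7% of all genes had none, and in the MEF list 41 had an interval, where 29.7% of all genes had none. Members were longer than other genes, with a median body of 49.8 kb against 17.6 kb, and these shares are not adjusted for length. Of the 43 members with any interval, 24 had more mESC than MEF intervals (55.8%, the same as the 55.8% over all genes with an interval), 8 had more MEF intervals and 11 had equal numbers. Among Adam genes 14 had more mESC intervals and 1, Adam39, had more MEF intervals. Among Adamts genes 8 had more mESC and 7 more MEF intervals.

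The lists were compared gene by gene with a two-sided exact binomial test of each gene's mESC share against 56.2%, the share summed over the genes tested. Among 3511 genes with at least 10 intervals, 22 of them members, 0 passed a Benjamini-Hochberg adjusted p of 0.05 in either direction (0% of genes). At an unadjusted p under 0.05 there were 28 genes and 0 members. A shared interval, found in both lists, counts on both sides, so the counts compared are not independent. With unshared intervals alone, 28 genes toward mESCs and 39 toward MEFs of 1654 lay under 0.05. Among them was 1 member, Adamts19 (exact binomial p = 0.0459, adjusted p = 0.988). With no flank, 4 genes toward mESCs and 8 toward MEFs of 2611 lay under 0.05. The 1 member among these was Adam23, with an mESC share of 84.2% (exact binomial p = 0.0183), which did not pass after adjustment. Its mESC share was 64.5% with 50 kb flanks. The main test therefore gives no evidence that the lists agree. Density was tested with a two-sided negative binomial test on territory length across 20807 genes, and 0 genes passed in either list or direction (0%). At an unadjusted p under 0.05, 378 genes stood higher in mESCs, among them 1 member, Adam5, and 344 stood higher in MEFs, among them 1 member, Adam17, both members with an adjusted p of 1. Among 51 members 1 gene is a share like that over all genes. The differences between lists named below are therefore counts in 2 lists that no test called.

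**Figure D2:**
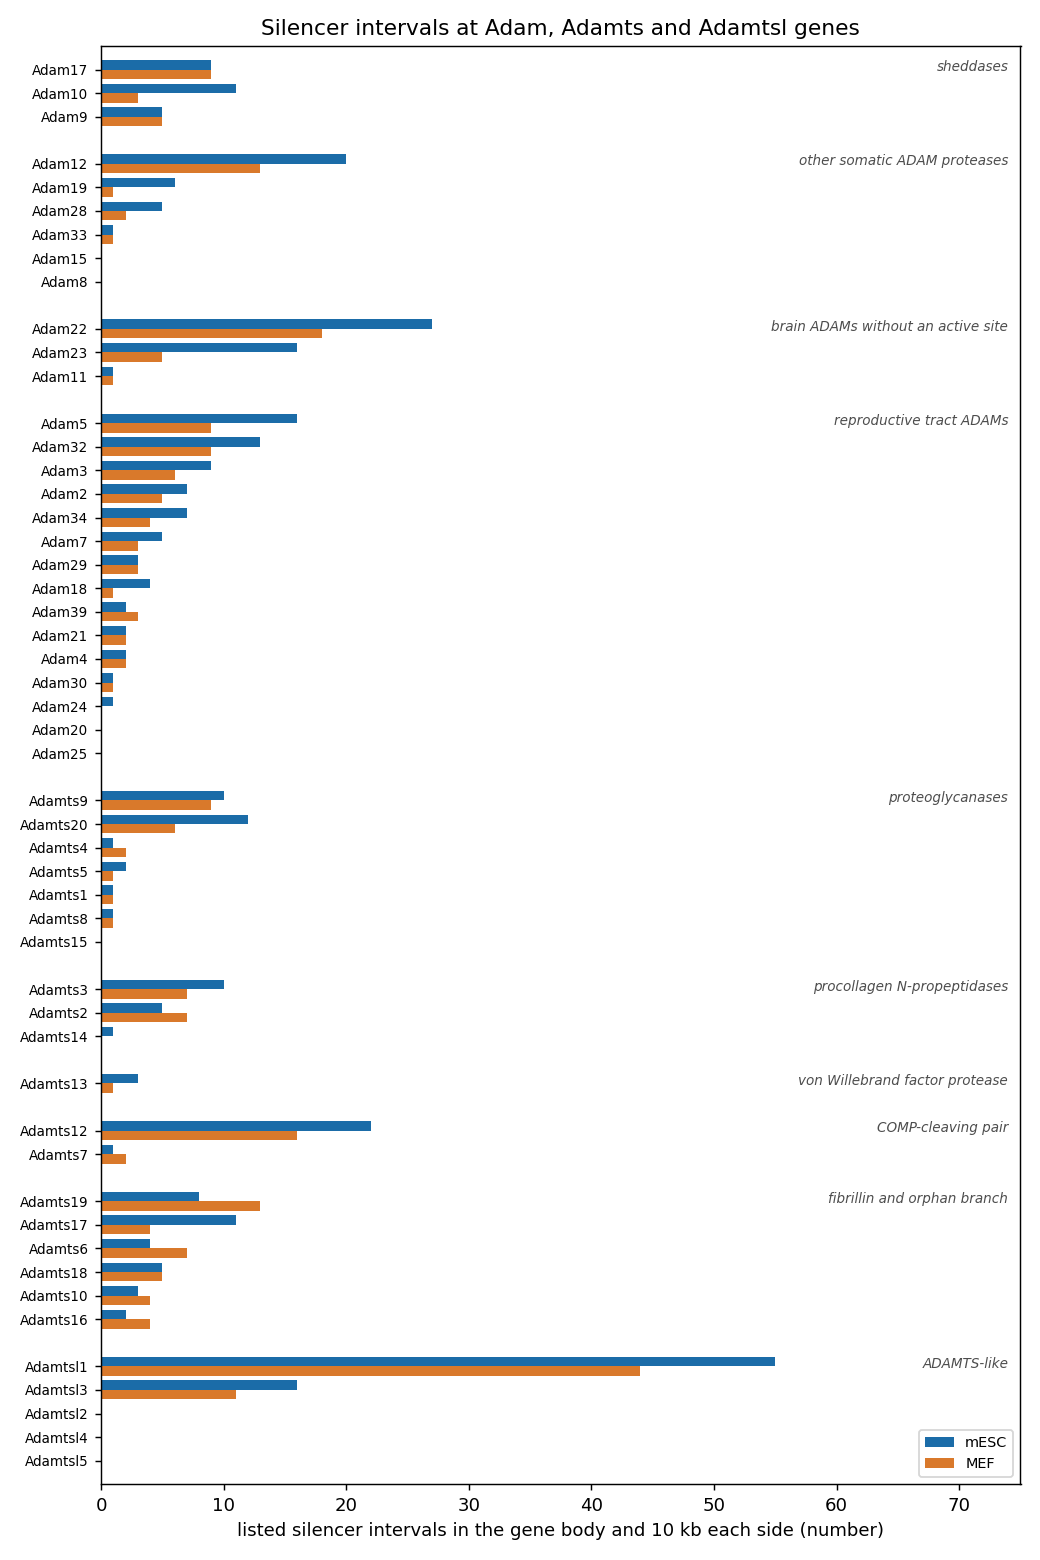
Number of listed intervals in the territory of each of the 51 members, grouped by role, with mESC bars above MEF bars. Adamtsl1 has the most intervals with 55 and 44, and 8 members have none in either list.

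The interval with the highest authors' fold of the whole MEF list lay beside a member, 4.27 kb upstream of Adam22. The sequences of 4 segments listed in both cell types are shown here, because they let the exact bases reported by both screens be read. They were taken from GRCm38.p6 on the plus strand, with the bases that the other list's interval also covers in capitals. The Adam10 and Adamts1 segments lie wholly inside the mESC interval, and the Adam22 and Adam17 segments in part.
Adam22 upstream, chr5:8372301-8372551: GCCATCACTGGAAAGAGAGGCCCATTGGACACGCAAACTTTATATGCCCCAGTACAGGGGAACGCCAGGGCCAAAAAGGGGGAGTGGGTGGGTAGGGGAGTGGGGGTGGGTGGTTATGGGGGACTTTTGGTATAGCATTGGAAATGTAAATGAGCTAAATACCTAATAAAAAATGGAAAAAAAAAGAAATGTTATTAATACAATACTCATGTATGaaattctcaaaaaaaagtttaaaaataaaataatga
Adam17 intron 7, chr12:21343551-21343651: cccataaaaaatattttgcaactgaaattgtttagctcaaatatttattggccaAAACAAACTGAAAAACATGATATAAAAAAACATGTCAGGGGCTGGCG
Adam10 intron 1, chr9:70684386-70684636: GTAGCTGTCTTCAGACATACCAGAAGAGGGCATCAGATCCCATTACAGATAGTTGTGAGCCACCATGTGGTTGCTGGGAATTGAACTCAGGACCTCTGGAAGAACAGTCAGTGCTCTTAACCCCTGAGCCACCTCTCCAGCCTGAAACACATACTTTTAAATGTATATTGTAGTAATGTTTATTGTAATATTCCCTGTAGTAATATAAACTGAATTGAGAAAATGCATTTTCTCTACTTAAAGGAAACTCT
Adamts1 downstream, chr16:85785787-85785985: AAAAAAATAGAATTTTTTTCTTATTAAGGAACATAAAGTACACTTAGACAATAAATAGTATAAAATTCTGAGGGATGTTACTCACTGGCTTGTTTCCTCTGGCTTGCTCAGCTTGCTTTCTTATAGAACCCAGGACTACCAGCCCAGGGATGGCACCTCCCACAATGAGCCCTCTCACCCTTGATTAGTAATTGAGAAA
The Adam22 segment is soft-masked repeat over its whole length and has 215 of its 251 bases in capitals. How reads that fit several repeat copies were placed is not given in the sources used here.

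Among the sheddases, Adam10 and Adam17 are the main enzymes that release Notch receptors, growth factors and tumour necrosis factor from cells. Adam10 (chr9:70678997-70780229, plus strand) had 11 mESC and 3 MEF intervals, an mESC share of 78.6% with an exact 95% interval of 49.2% to 95.3% (exact binomial p = 0.110, adjusted p = 1). Both lists met in intron 1, where 2 intervals of each list overlapped. The first pair had folds of 3.64 (mESC) and 2.98 (MEF), and the second 2.14 (mESC) and 2.28 (MEF). Beyond intron 3 the mESC list held 8 intervals with folds of 2.08 to 2.64, the last 2 of them in the 3 prime UTR, and the MEF list held 0. Those 8 began 51.7 kb from the 5 prime end, in the 3 prime part of the gene.

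Adam17 (chr12:21323509-21373632, minus strand) was equally covered, with 9 intervals in each list. Its 128 intervals per Mb made it the densest member in MEFs and the third densest in mESCs. The MEF count was 3.37 times that expected from length (unadjusted p = 0.0236 and adjusted p = 1, negative binomial test) and the mESC count 2.55 times (unadjusted p = 0.0860 and adjusted p = 1). The negative binomial test with GC and repeat content as covariates gave 3.35 times in MEFs (unadjusted p = 0.0167). In mESCs it gave 2.51 times (unadjusted p = 0.0736), and neither passed after adjustment. Intron 7, only 2.64 kb long, held 4 mESC and 3 MEF intervals, and all 3 MEF intervals overlapped an mESC one. The strongest pair of that intron had folds of 3.31 (mESC) and 3.74 (MEF). A second group lay in intron 1 within 4.02 kb of the gene's 5 prime end. In all, 6 intervals of each list were shared.

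Adam9, a widely expressed sheddase at chr8:24949611-25016927, had 5 intervals in each list, of which 2 were shared. A MEF interval with a fold of 2.01 lay 0.530 kb from a transcription start site of Adam9 and also overlapped the neighbouring gene Tm2d2.

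**Figure D3:**
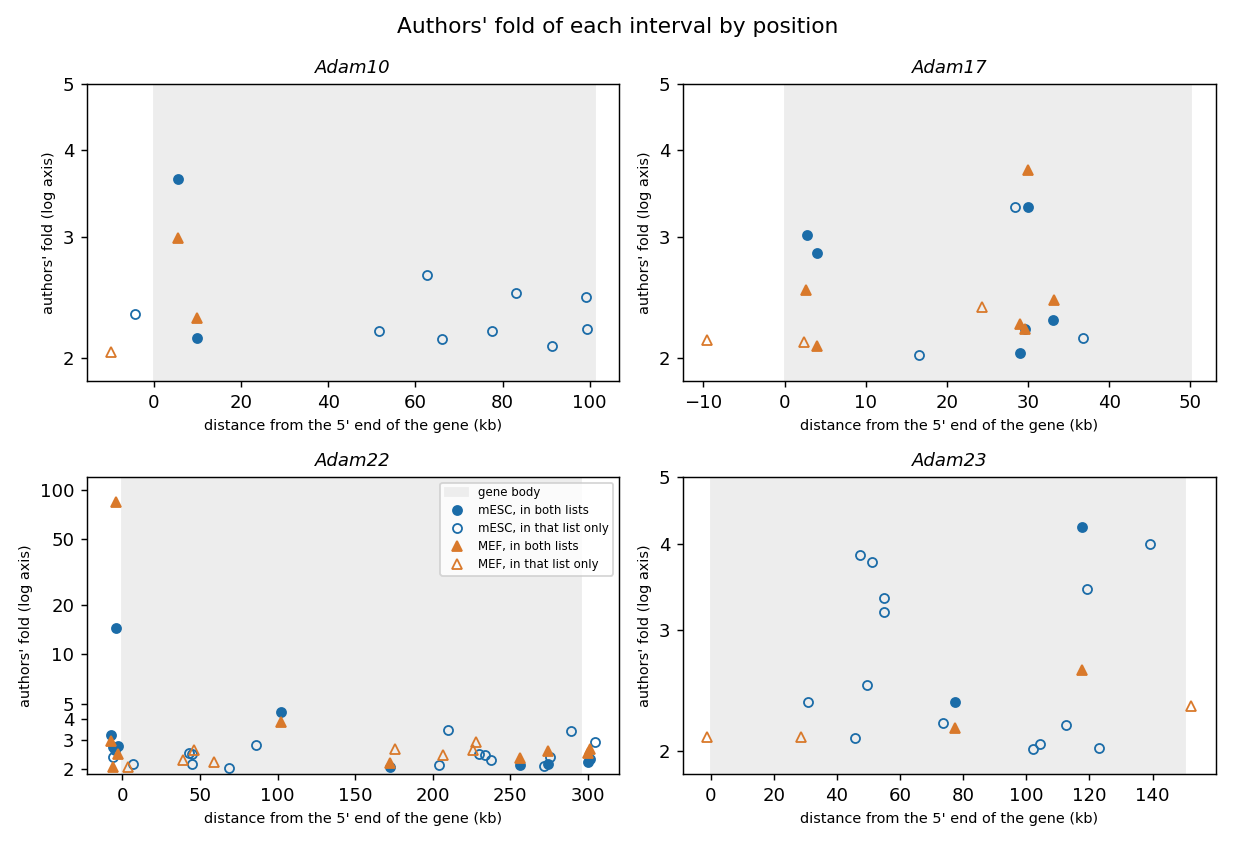
Authors' fold (log axis) of every mESC (circles) and MEF (triangles) interval at Adam10, Adam17, Adam22 and Adam23 by distance from the gene's 5 prime end in kb; filled symbols overlap an interval of the other list and the grey area is the gene body. The pair with folds of 14.5 and 84.4 stands just upstream of Adam22, and open circles fill the 3 prime part of Adam10 and intron 3 of Adam23.

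Adam22, Adam23 and Adam11 encode brain proteins that lack the catalytic residues, and Adam22 and Adam23 bind the secreted protein Lgi1 at synapses. Adam22 (chr5:8072352-8368160, minus strand) had 27 mESC and 18 MEF intervals, of which 10 in each list were shared. Its upstream flank, the 10 kb before the gene, held 6 mESC and 4 MEF intervals between 2.71 and 7.30 kb from the 5 prime end. All 4 MEF intervals there overlapped an mESC interval. The strongest pair had an mESC fold of 14.5 (rank 217 of that list) and a MEF fold of 84.4 (rank 1), and the other 3 pairs had mESC folds of 2.71 to 3.22 and MEF folds of 2.06 to 2.96. A further shared pair lay in intron 3, with folds of 4.42 (mESC) and 3.84 (MEF).

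Adam23 (chr1:63445891-63596276, plus strand) showed the widest gap between lists along with Adamtsl1, with 16 mESC and 5 MEF intervals and an mESC share of 76.2% (exact binomial p = 0.0784, adjusted p = 1). All 16 mESC intervals lay in introns, against 3 of the MEF intervals. Intron 3 held 6 mESC intervals within 45.6 to 54.9 kb of the 5 prime end, with a median fold of 3.26, and 0 MEF intervals. The sequence of the strongest of these is given with the motifs below. Only 2 mESC intervals were shared, and the stronger of them, in intron 19, reached 4.23 (mESC) and 2.63 (MEF). Adam11 had 1 interval in each list, and these did not overlap.

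Of the other somatic ADAM proteases, Adam12 (chr7:133883199-134232146), a protease of placenta and regenerating muscle, had the most intervals, 20 in mESCs and 13 in MEFs, of which 7 were shared. Its intron 3 of 122 kb held 8 mESC and 5 MEF intervals with folds no higher than 3.00 in mESCs and 2.24 in MEFs, and 4 of each overlapped. Adam19, which acts in heart development, had 6 mESC intervals and 1 MEF interval. Adam28, a lymphocyte protease, had 5 mESC and 2 MEF intervals, and an mESC interval in intron 14 with a fold of 5.52 was among the 5 highest of the members in that list. Adam33 had 1 interval in each list, and these overlapped. Adam8, a leukocyte protease, and Adam15 had none.

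The reproductive tract ADAMs held 82.1 mESC and 56.0 MEF intervals per Mb, beside 89.7 and 61.0 for the sheddases and 83.8 and 45.7 for the brain ADAMs. Adam18, Adam3, Adam5, Adam32 and Adam9 stand in a row on chromosome 8 (chr8:24602246-25016927), and their joined territories of 435 kb held 39 mESC and 26 MEF intervals, or 89.7 and 59.8 per Mb. Adam5 had 16 mESC and 9 MEF intervals and was the densest member in mESCs at 136 per Mb, 2.71 times the number expected from length (unadjusted p = 0.0353 and adjusted p = 1, negative binomial test). With GC and repeat content as covariates the same test gave 2.12 times (unadjusted p = 0.0862 and adjusted p = 1). Adam3, whose product sperm need to pass into the oviduct, followed with 9 mESC and 6 MEF intervals at 131 and 87.4 per Mb. Adam32 had 13 and 9 intervals, while Adam18 at the end of the row had 4 mESC intervals and 1 MEF interval. Intervals in overlapping territories counted for both neighbours here, which applied to 8 mESC and 4 MEF intervals over all members.

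A second row on the same chromosome, Adam24, Adam25, Adam20 and Adam39, held 3 intervals in each list over 99.2 kb, or 30.3 per Mb in mESCs and in MEFs. Adam39 had 2 mESC and 3 MEF intervals, all of them shared and all outside the gene body, and at 125 per Mb its short territory was the second densest of the members in MEFs, and Adam24 had 1 mESC interval. Adam2, which encodes the sperm protein fertilin beta, had 7 mESC and 5 MEF intervals, with 3 of each shared. Adam34 had 7 and 4, and its intron 3 held an mESC interval with a fold of 9.12 that is soft-masked repeat throughout and has no MEF counterpart. Adam7, an epididymal gene, had 5 mESC and 3 MEF intervals, and both of its strongest MEF intervals exceeded a fold of 4 (4.19 and 4.03). Adam29 had 3 intervals in each list, Adam4 and Adam21 had 2 in each, and Adam30 had 1 in each.

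**Figure D4:**
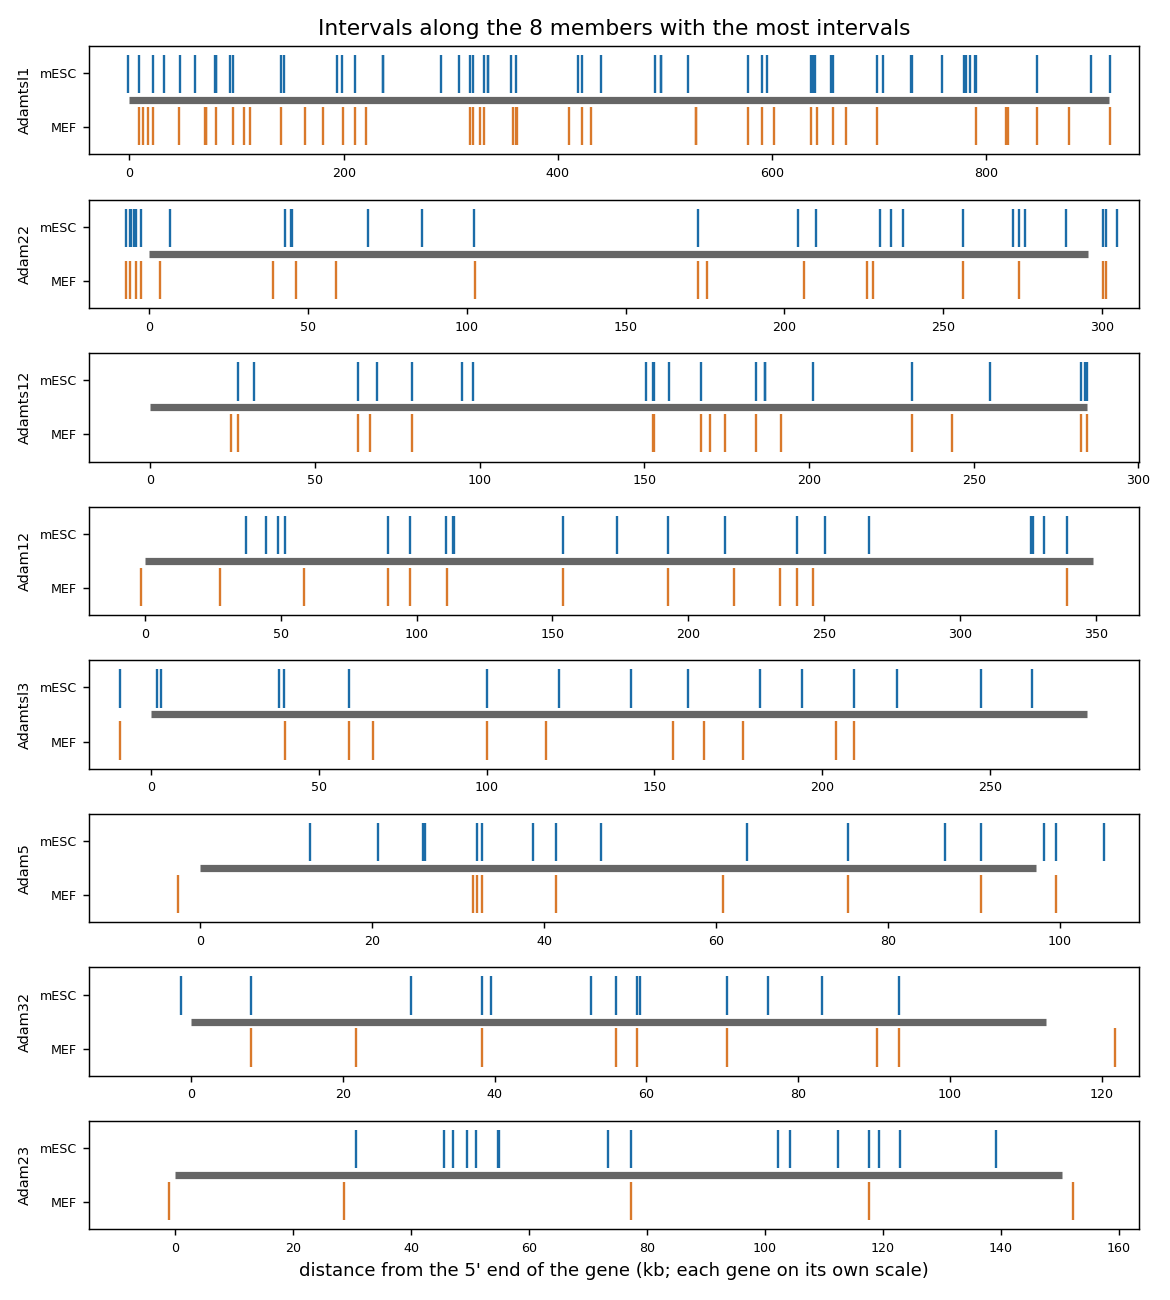
Positions of mESC intervals (above the line) and MEF intervals (below it) along the 8 members with the most intervals, in kb from the 5 prime end of each gene, whose body is the grey bar. Adam22 has a group of both colours just upstream, and Adam23 has 16 mESC marks against 5 MEF marks, the same total as Adamts19, which is not drawn.

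Among the proteoglycanases, Adamts4 and Adamts5 are the aggrecanases of cartilage, and Adamts1, Adamts9 and Adamts20 cut versican. Adamts9 (chr6:92772699-92943492) had 10 mESC and 9 MEF intervals, of which 5 were shared. The strongest mESC interval, in intron 28, had a fold of 6.77, no MEF counterpart and 93.4% soft-masked repeat. Adamts20, mutated in the belted mouse, had 12 mESC and 6 MEF intervals, with 2 shared. Adamts5 had 2 mESC intervals and 1 MEF interval, none of them shared, and Adamts4 had 1 and 2. Adamts1 had 1 interval in each list, in the downstream flank, and the pair was among the stronger ones at the members, with an mESC fold of 4.44 and a MEF fold of 4.69. Adamts8 had 1 shared interval in each list.

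The procollagen N-propeptidases trim collagen precursors before fibrils form. Adamts3 (chr5:89677087-89883334) had 10 mESC and 7 MEF intervals, and its intron 4 held 4 of each. Adamts2 had 5 mESC and 7 MEF intervals with only 1 shared, and an mESC interval downstream of the gene had a fold of 5.15. Adamts14 had 1 mESC interval, with a fold of 4.20, and 0 MEF intervals in its territory, although the mESC interval overlapped a MEF interval just outside it. Adamts13, which cuts von Willebrand factor, had 3 mESC intervals and 1 MEF interval.

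Adamts12 and Adamts7 cut cartilage oligomeric matrix protein (COMP). Adamts12 (chr15:11064790-11349231) had 22 mESC and 16 MEF intervals, of which 10 were shared. Intron 2 held 5 of each list, and the 3 prime UTR held 4 mESC and 2 MEF intervals with folds of at most 3.27 in mESCs and 2.26 in MEFs. Adamts7 had 1 mESC and 2 MEF intervals, and the folds of its upstream pair were 2.71 (mESC) and 5.29 (MEF).

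The remaining Adamts genes, which include the fibrillin-linked Adamts10 and Adamts17, had more MEF than mESC intervals in 4 of 6 cases. Among genes with any interval, 8 of 43 members and 4238 of 17441 genes had more MEF intervals. The counts per gene are small and the group was not tested. Adamts19 (chr18:58836667-59054060) had 8 mESC and 13 MEF intervals, an mESC share of 38.1% (exact binomial p = 0.123, adjusted p = 1), and its intron 2 held a MEF interval with a fold of 8.17. Adamts6 had 4 and 7, Adamts16 2 and 4, and Adamts10 3 and 4, which gave Adamts10 the highest MEF density of the Adamts genes at 80.7 per Mb. Adamts17 ran the other way with 11 mESC and 4 MEF intervals (exact binomial p = 0.204, adjusted p = 1). Adamts18 had 5 in each list. In Adamts17 and Adamts18, 0 intervals overlapped the other list. Over the territories of all genes, 36.3% of mESC and 47.3% of MEF intervals did so.

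Adamtsl1 (chr4:85514172-86428385), an ADAMTS-like gene of 914 kb, had the most intervals of all members, with 55 in mESCs and 44 in MEFs and 18 of each shared. Per Mb it stood near the average, at 58.9 in mESCs and 47.1 in MEFs, 1.17 and 1.24 times the number expected from length. Its longest coding transcript starts 540 kb into the annotated gene, and 33 mESC and 30 MEF intervals lay before that start. Between 700 and 800 kb from the 5 prime end there were 9 mESC intervals and 1 MEF interval, the most uneven stretch of 100 kb. At Adamtsl1, 11 mESC and 12 MEF intervals also lay in the body or at the promoter of another protein-coding gene. Over all members this held for 23 of 338 mESC and 20 of 247 MEF intervals, so an interval need not belong to the member named. Adamtsl3 had 16 mESC and 11 MEF intervals with 5 shared. Adamtsl2 and Adamtsl4, which are mutated in human disorders of connective tissue and lens, had none, nor did Adamtsl5.

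Overlap between the lists at the members was like that elsewhere. There were 114 shared intervals in each list, 33.7% of the mESC member intervals (exact 95% interval 28.7% to 39.0%) and 46.2% of the MEF ones (39.8% to 52.6%), beside 36.6% and 47.3% of the whole lists. Of the 114 shared intervals, 11 had identical boundaries in both. The families differed: 35.2% of mESC and 57.8% of MEF intervals were shared at Adam genes, and 32.4% and 35.6% at Adamts genes. Within the latter, the group with Adamts10 and Adamts17 had 21.2% and 18.9%. These shares were not tested. In 70 of the 114 pairs (61.4%) the mESC fold was the higher, against 54.1% of pairs over all territories. Folds of a pair had a Spearman correlation of 0.26, against 0.48 over all territories, described over pairs that share fragments and input libraries.

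**Figure D5:**
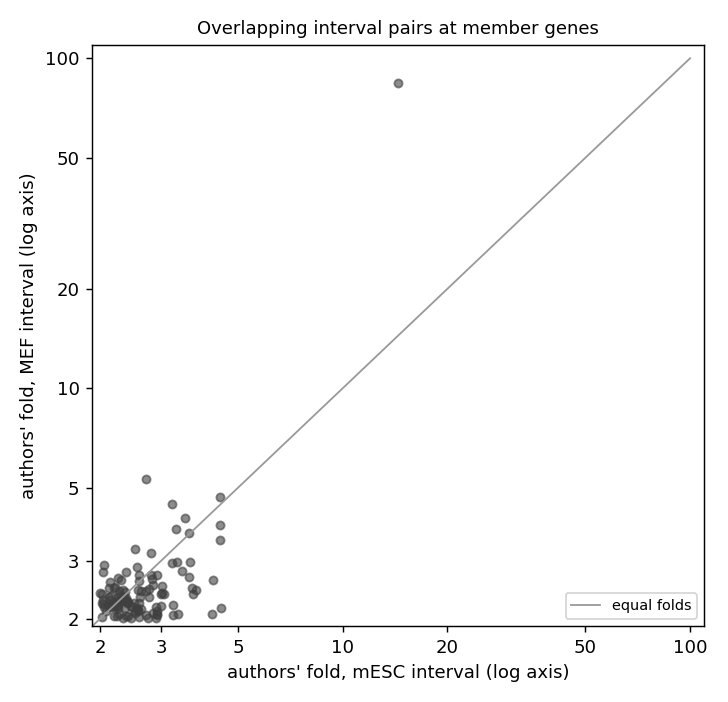
Authors' fold of the mESC interval (horizontal, log axis) and of the MEF interval it overlaps (vertical, log axis) for the 114 pairs at member genes, 1 point per pair, with the line of equal folds. The Adam22 upstream pair (14.5 and 84.4) stands apart from the rest, which lie below 6 on both axes.

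Most member intervals were intronic. Introns held 79.2% of the mESC and 80.5% of the MEF gene-interval pairs at the members, against 66.5% and 67.1% over all genes. The median gene body was 49.8 kb at the members and 17.6 kb over all genes, so flanks of 10 kb weigh less at the members. The part of gene length in the intron shares was not tested. Within 1 kb of a transcription start site there were 4 intervals in each list, at Adam3, Adam4 and Adamtsl3 in mESCs and at Adam3, Adam4 and Adam9 in MEFs. That is 5.88% of members in each list, against 6.97% of genes in mESCs and 5.25% in MEFs. Every interval at Adam4 also lay in the body or at the promoter of another protein-coding gene. The 3 prime UTR held 8 mESC and 2 MEF intervals, and coding exons held 5 and 2.

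Sequence motifs were counted on both strands in windows of 200 bases centred on each interval, for 12 motifs in both lists. The AP-1 motif TGANTCA, bound by Fos and Jun factors, occurred in 21 of 338 mESC member windows (6.21%, exact 95% interval 3.89% to 9.34%) and in 27 of 247 MEF member windows (10.9%, 7.33% to 15.5%). Over the windows of all listed intervals in the territories of autosomal protein-coding genes the shares were 5.26% and 5.97%. In MEF intervals with no mESC overlap the member share was 13.5% (8.22% to 20.5%), against 6.42% over all such intervals. The 27 windows lay at 15 genes, 8 of them at Adamtsl1 and 3 at Adamts19, and without Adamtsl1 the share was 9.36%. The TEAD motif GGAATG occurred in 10.9% of mESC and 15.0% of MEF member windows, against 9.95% and 10.0% over all. The octamer ATGCAAA, bound by Pou factors, occurred in 6.51% of mESC and 5.67% of MEF member windows, against 4.45% and 4.35%. Other motifs were rarer at the members in both lists. The E2-box CAGGTG occurred in 8.88% of mESC and 7.69% of MEF member windows, against 11.0% and 10.9%. The GATA motif AGATAA occurred in 10.7% and 10.1%, against 13.4% and 13.4%. The motifs not named here were higher, lower or mixed between the lists. These shares are descriptions of letters in the windows. In all 72 were computed, over the motifs, the lists and all, shared or unshared intervals, and none was tested.
Windows at the members named above follow, from GRCm38.p6 on the plus strand, to show where the motif lies in each. Each belongs to the highest-fold interval of its gene and list whose window holds the motif. At Adam23 only intron 3 was searched, and at Adamts3 a TEAD match was also required. Capitals mark TGANTCA on either strand in the first 4 and ATGCAAA in the last.
Adam22 intron 3, chr5:8265627-8265826: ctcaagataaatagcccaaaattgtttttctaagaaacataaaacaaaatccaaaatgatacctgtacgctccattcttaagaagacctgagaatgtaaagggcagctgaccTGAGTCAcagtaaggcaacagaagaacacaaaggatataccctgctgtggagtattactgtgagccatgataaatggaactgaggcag
Adamts9 intron 28, chr6:92825859-92826058: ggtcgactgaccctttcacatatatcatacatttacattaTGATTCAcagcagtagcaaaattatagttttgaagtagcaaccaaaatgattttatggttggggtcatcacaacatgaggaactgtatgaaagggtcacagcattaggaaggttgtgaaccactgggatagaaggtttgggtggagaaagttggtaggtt
Adamts3 intron 4, chr5:89731742-89731941: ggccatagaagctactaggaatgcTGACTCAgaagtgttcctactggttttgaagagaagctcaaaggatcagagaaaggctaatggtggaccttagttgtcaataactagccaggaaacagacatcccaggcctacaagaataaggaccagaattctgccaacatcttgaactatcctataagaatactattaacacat
Adamtsl1, chr4:85841673-85841872: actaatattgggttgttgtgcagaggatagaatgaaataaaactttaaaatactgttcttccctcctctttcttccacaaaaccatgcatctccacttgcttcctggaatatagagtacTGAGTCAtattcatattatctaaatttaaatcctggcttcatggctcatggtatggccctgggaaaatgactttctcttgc
Adam23 intron 3, chr1:63492979-63493178: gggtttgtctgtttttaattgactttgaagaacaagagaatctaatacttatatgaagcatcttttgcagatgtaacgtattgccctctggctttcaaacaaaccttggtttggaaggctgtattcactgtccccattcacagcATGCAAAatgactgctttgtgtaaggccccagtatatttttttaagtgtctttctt
The Adam22 window belongs to the shared pair of intron 3, and the Adamts9 and Adam23 windows to intervals listed in mESCs alone. The Adamts3 window (fold 2.35) and the Adamtsl1 window (fold 4.63) belong to intervals listed in MEFs alone. In these windows the motif lies partly outside the listed interval, which is chr5:89731771-89731912 at Adamts3 and chr4:85841747-85841797 at Adamtsl1. Most of the Adamts3 motif lies before its interval, and the Adamtsl1 motif runs past the end of its interval. In the other windows the motif lies inside the interval.

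Genes that work with these proteases were taken from a list of inhibitors, regulators, substrates and ligands. The 47 autosomal genes held 183 mESC and 128 MEF intervals, summed over genes, and 9 had none. Of 10 that could be tested for the mESC share, 0 passed (exact binomial test with adjustment over all 3511 genes), and 0 of 47 passed for density in either list. The metalloprotease inhibitors Timp2, Timp3, Timp4 and Reck held 7 mESC and 3 MEF intervals. In mESCs Timp4 had 1.96 times the number expected from length, and the other inhibitors had 0 to 0.667 times. In MEFs all of them had 0 to 0.38 times the expected number. Shed substrates held 104 mESC and 79 MEF intervals, of which 44 and 36 lay at Erbb4, a receptor of neuregulins. The substrates Notch1, Tnf and Hbegf had none. Lgi1, the ligand of Adam22 and Adam23, had 6 mESC and 4 MEF intervals.

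Set beside other families of matrix and adhesion genes, Adam genes had the highest median density per gene in both lists, at 66.9 per Mb in mESCs and 42.5 in MEFs. The 21 Mmp genes, the matrix metalloproteases, had 54.1 and 27.9 per Mb. The 42 collagen genes had 31.5 and 20.96, close to or below the 33.0 and 30.6 of the Adamts genes, and the 39 integrin and laminin genes had 46.4 and 35.5. These medians were not tested against each other.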

How the data were processed

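The 2 interval lists, 1 for mESCs and 1 for MEFs, were used as the authors deposited them. Each interval carries a linear fold (a ratio) that the authors deposited beside it, per the file headers. The quotient behind it, the caller and any pooling of libraries are not given in the sources used. Per the submitters' processing notes the reads were handled with Bowtie2 and SAMtools, without versions, and the build is hg38, while the design text names mm10; 0 intervals ended beyond an mm10 chromosome, and mm10 was used. Overlap with the other list needed at least 1 bp. Coordinates are as listed, and starts may count from 1, an uncertainty of 1 bp.

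The mESC share per gene and the density per gene were tested as described in the report, with Benjamini-Hochberg adjustment at 0.05 over all genes tested. The negative binomial test used 1 dispersion for all genes (0.217 in mESCs and 0.197 in MEFs), and both tests were tried on simulated data. The simulated counts for the mESC share held no shared intervals. They therefore do not show how that test behaves on these lists. GRCm38.p6 supplied sequence, GC content and soft-masking, and intron numbers from the longest protein-coding transcript. Python 3.11.15, scipy 1.17.1, pysam 0.24.0 and samtools 1.23.1 were used. Alternatives changed the territory, the assignment by midpoint, the fold threshold, the overlap, the spread between genes and the members, kept only unshared intervals, lowered the minimum to 5 intervals, or added GC and repeat content as covariates. Named genes were members with at least 10 intervals, past 0.05, with the highest densities, the widest differences or the strongest folds, together with a set chosen by role. The members, the gene lists and the tests were chosen with earlier results of these data known.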

Additional observations from a re-analysis of the deposited data

How the results depend on the processing

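No paired analysis was possible because each cell type has 1 interval list and no values per library, so the replicate numbers of the labels tie to no value; for the same reason no replicate could be left out. The test of the mESC share called 0 genes under every alternative run, and 0 members were called for density under any of them. With a Poisson in place of the negative binomial test, which allows for no spread between genes beyond counting, 45 genes were called higher and 15 lower in mESCs, and 17 higher and 5 lower in MEFs; with no flank, 1 gene was called higher in mESCs. With GC and repeat content as covariates the negative binomial test called 0 genes (365 higher and 48 lower in mESCs and 367 higher and 27 lower in MEFs at an unadjusted p under 0.05). Member totals were 530 mESC and 393 MEF intervals with 50 kb flanks. With intervals at or above their list's median fold they were 156 and 106, or 24.7 and 16.8 per Mb. The shared share was 26.9% of mESC and 36.4% of MEF member intervals when the overlap had to cover 50% of both, and 22.4% and 33.0% at or above the median fold; the fold threshold and the wider flank change the totals by construction. After seeing the data, the AP-1 and TEAD shares of MEF member intervals were recounted in the listed interval, under 50% repeat and without Adamtsl1. For AP-1 they were 10.9%, 12.1% and 9.36%, against 6.64%, 6.66% and 5.97% over all territories. For TEAD they were 15.0%, 12.1% and 12.8%, against 10.9%, 10.3% and 10.0%, so the gap was narrower in each recount than in the report and narrowest under 50% repeat. Depth limits each listed interval to an unknown degree, since the lists hold no counts.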

Other observations

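Members whose symbol carries a letter after the number were left out by the naming rule and are given here as values. Adam1a had 3 mESC intervals and 0 MEF intervals, and Adam1b had 2 and 1. Adam26a had 1 and 0, and Adam26b 2 and 1. Adam6a and Adam6b, which lie in the region of the immunoglobulin heavy chain genes, each had 1 mESC interval and 0 MEF intervals. Summed over the 6 genes there were 10 mESC and 2 MEF intervals, and no gene reached the 10 intervals needed for the test of the share.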
